A study of Sus scrofa with 24 samples.

Results

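The comparison set 6 pigs at 188 dpn (days post natum, near slaughter age) against 6 fetuses at 94 dpc (days post conception, in the last part of gestation), 12 of the 24 arrays of the series. The arrays were chosen by their stage label alone, and the other 12 arrays, 6 at 1 dpn and 6 at 28 dpn, are given beside them as values. The mothers of all animals, in both stages compared here, were German Landrace gilts that received a gestational high protein (HP) diet, so diet did not differ between the stages. Offspring of 3 gilts were collected per stage, and the labels do not say which animals were littermates, nor their sex. Littermates are not independent, so the p-values below are too small by an amount that is not known. One Affymetrix Porcine Genome array was hybridised per animal, and each of its probe sets returns a signal intensity without a unit. The labels give the tissue as liver and the series title as muscle. Of 12 measured skeletal muscle fibre markers, such as CKM, TNNT3 and TTN, none was under background at either stage. The median of 11 of them lay at the 99.5 to 99.8 percentile of all probe sets in the 12 arrays. The samples are therefore described here as muscle, against the tissue label. Which muscle was taken is not stated.

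During fetal life skeletal muscle forms its fibres, builds its connective tissue and carries developmental isoforms of the contractile proteins. Finished muscle has a fixed number of fibres that have grown in girth, carries adult fast or slow isoforms, stores glycogen and draws on creatine phosphate, glycolysis and mitochondria to pay for contraction. Isoforms here are products of related genes with the same task, such as the troponin T genes TNNT1, TNNT2 and TNNT3.

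Some arrays stood apart. The brightest probe set of ALB, the albumin gene of hepatocytes, was bright in 3 finished pigs: it read 56933 in animal 1, 45919 in animal 2 and 12421 in animal 3. Animal 4 read 123, animal 5 80.1 and animal 6 281. The median of 22 hepatocyte markers was 10450.1, 7795 and 1263 in these 3 and 19.7 to 87.6 in the other 3. At 94 dpc ALB read 132 to 1006. Animal 5 of 94 dpc had a median of 1909 over interferon-induced genes, against 97.2 to 346 in the other fetuses. Its medians were also high for the list of macrophage and complement C1q genes, at 1373 against 277 to 373, and for antigen presentation genes, at 2856 against 531 to 804. Its muscle fibre markers were the lowest of the 12 arrays, with a median of 21177. RNA measures differed by stage as well: the 5′ to 3′ signal ratio of the EF1A control probe sets was 0.988 to 1.05 at 94 dpc and 0.512 to 0.656 at 188 dpn, with no overlap. For the GAPDH controls it was 0.780 to 0.870 and 0.624 to 0.725, also without overlap. For the actin controls it was 0.208 to 0.253 and 0.145 to 0.212, with overlap. The part of these ratios in the differences below was not tested.

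**Figure D1:**
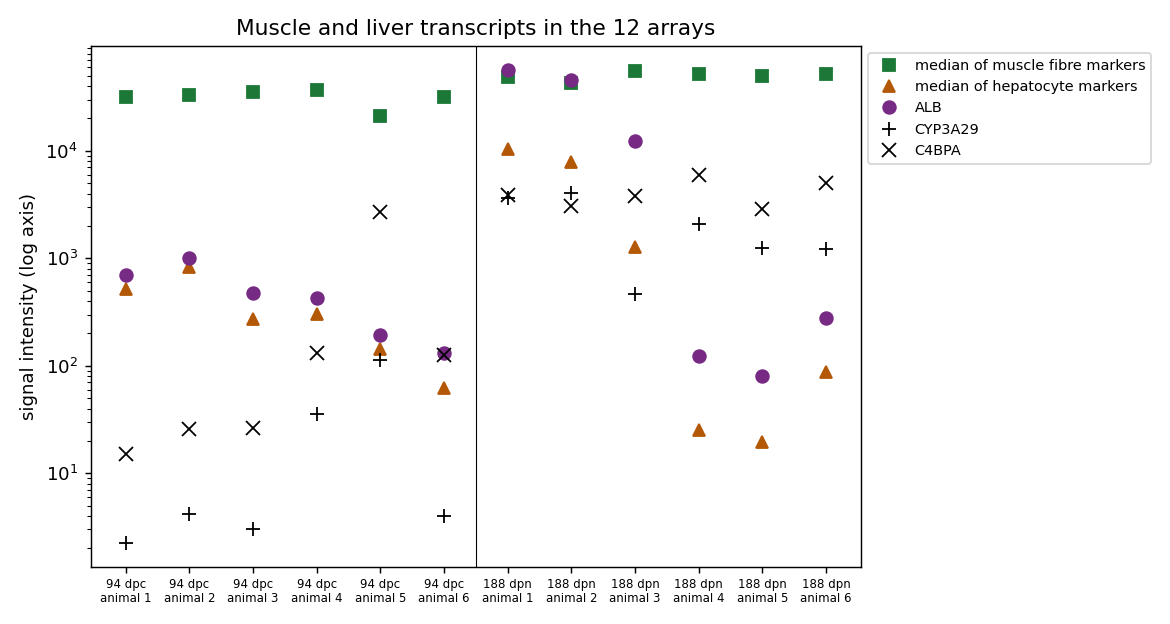
Signal intensity (log axis) in each of the 6 arrays of 94 dpc and the 6 of 188 dpn: the median of the muscle fibre markers, the median of the hepatocyte markers, and the ALB, CYP3A29 and C4BPA probe sets. The muscle median is high in all 12 arrays, while the hepatocyte median and ALB are high in animals 1, 2 and 3 of 188 dpn and CYP3A29 and C4BPA are high in all 6 animals of that stage.

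Between 94 dpc and 188 dpn, 9548 of 23935 probe sets (39.9%) changed at an adjusted p of 0.05 in limma. Higher at 188 dpn were 2990 (12.5%) and lower were 6558 (27.4%), and 6706 of the changes were at least 2-fold. Of the called probe sets, 6679 (27.9% of those tested) had stages that did not overlap. The direction of the calls moved with the scaling: 31.3% of the calls were higher on the deposited scale, 48.9% after quantile normalization and 60.8% once every array was centred on its own median. The median difference over all probe sets was -0.29 (log2) as deposited, 0.05 after quantile normalization and 0.25 after centring. The highest signal of an array was 40623 to 58582 at 94 dpc and 72099 to 91618 at 188 dpn. Changes were therefore marked as held when they passed in the same direction in 4 fits, as deposited, without the 3 arrays of 188 dpn with high ALB, after quantile normalization, and with both. Median centring was not among these fits. The rule left 5364 probe sets (22.4%), 2095 higher (8.75%) and 3269 lower (13.7%). By gene, with the brightest probe set standing for each of 6765 genes, 1343 were higher (19.9%) and 2042 lower (30.2%), and 948 (14%) and 1121 (16.6%) of these held. These shares are the background for the lists below. Both stage means lay under the background signal of the control probe sets, 74.7, in 81 of the 2095 higher and 99 of the 3269 lower probe sets. A change from or to a mean under this background has a lower bound only, and a list's median is also given with such genes at their bound where the medians differ by more than 0.1. In whole tissue, fewer cells of a type and less RNA per cell cannot be told apart.

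**Figure D2:**
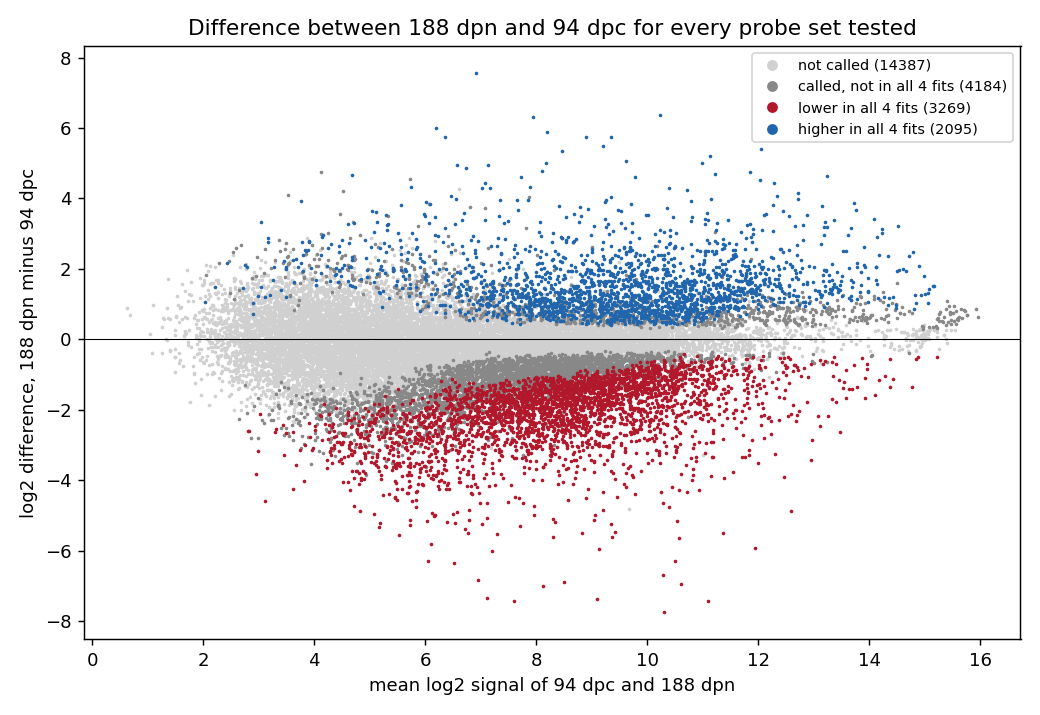
Log2 difference of 188 dpn minus 94 dpc against the mean log2 signal of both stages, 1 point per tested probe set; colours mark changes that passed in all 4 fits and grey those that did not. Changes of both directions extend past 4 log2 units and 3269 probe sets are lower and 2095 higher in all 4 fits.

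Developmental contractile isoforms fell. Of 7 measured genes 5 were lower and held, and 1 was higher. The list's median was -2.59, beside -0.29 for all probe sets. Below, a value in brackets after a gene is its log2 difference, 188 dpn minus 94 dpc, with its standard error, and ranges run from the lowest to the highest animal. Cardiac troponin T (TNNT2), made by embryonic skeletal muscle and later kept by the heart, read 2044, 3358 and 3776 as lowest, median and highest signal at 94 dpc and 24.6, 64.5 and 234 at 188 dpn. Each fetus lay above every finished animal, and since the later mean was under the background of 74.7, the fall was at least 29.7-fold (adjusted p = 1.7e-09). The means at 1 and 28 dpn were 48.8 and 239.6. MYL4, the embryonic essential light chain of myosin, read 4164, 6352 and 8526 before and 208, 231 and 327 after, a log2 difference of -4.65 ± 0.29 (SE; adjusted p = 3.3e-11). It too was low by 1 dpn, at a mean of 237. The time course of ACTC1, cardiac alpha actin and the main actin of early muscle, was another: its means were 33342 at 94 dpc, 52745 at 1 dpn, 29565 at 28 dpn and 1149 at 188 dpn. The 12 arrays of the compared stages did not overlap, at 25506–37892 and 641–3199.9, and the difference was -4.86 ± 0.29 (adjusted p = 2.5e-11). The member that went up, ANKRD1, a stretch-responsive ankyrin repeat protein of the sarcomere, rose from 540.3–1237 to 1266–22152 (log2 3.06 ± 0.89, adjusted p = 0.0083). Without the 3 arrays with high ALB its difference was 2.05 and no longer passed.

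**Figure D3:**
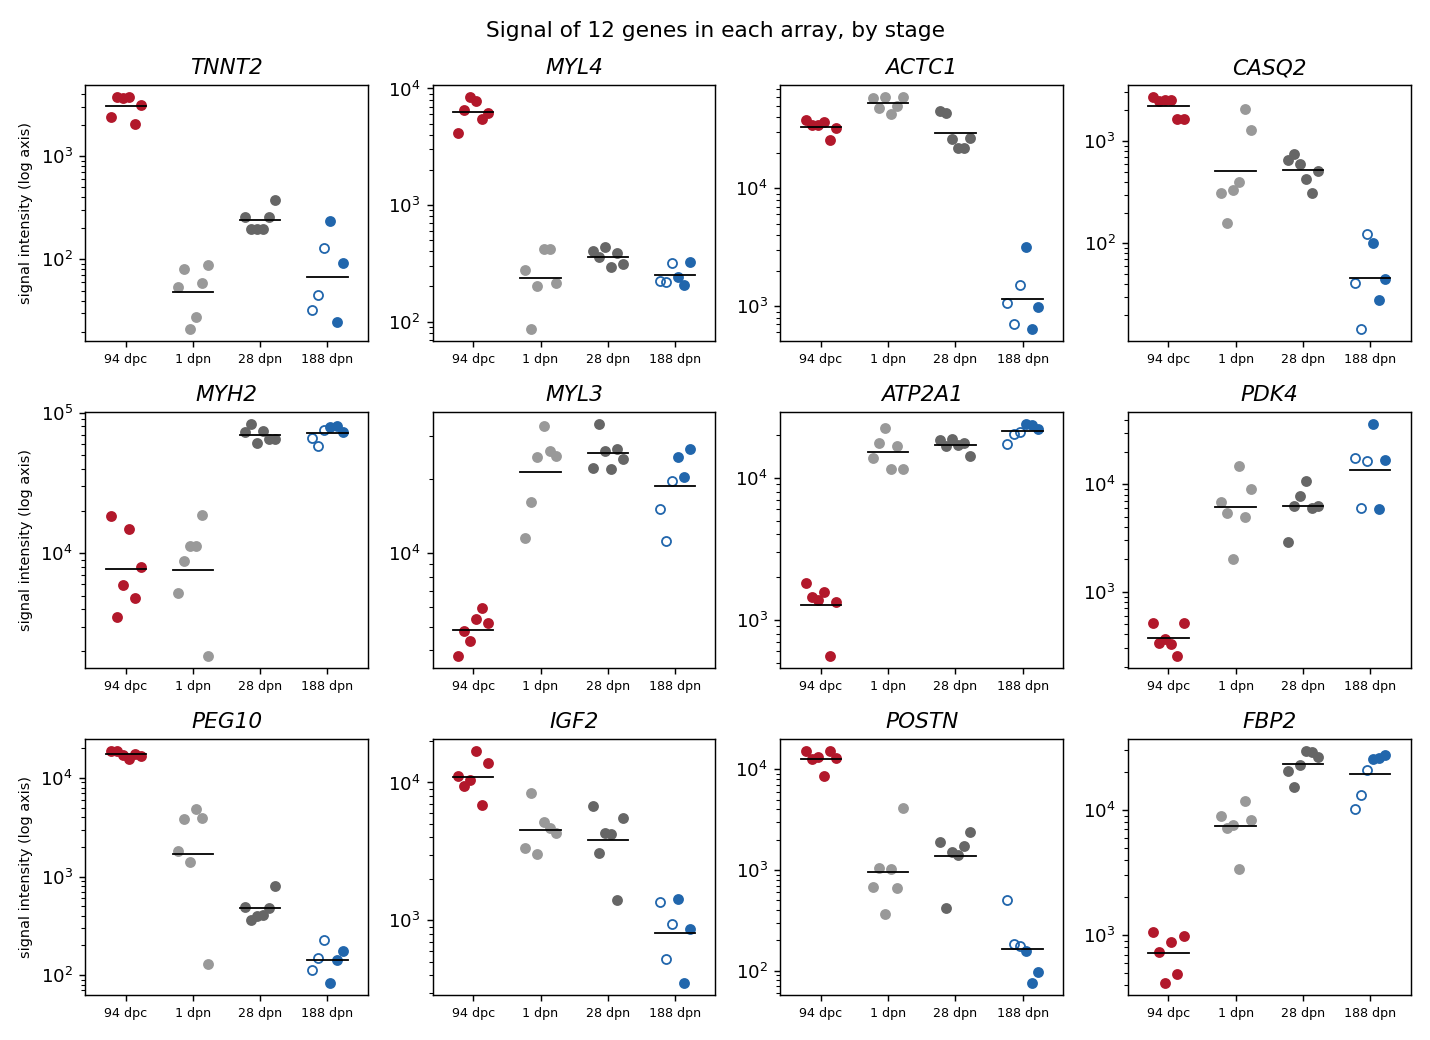
Signal intensity (log axis) of 12 genes in every array of the 4 stages, 6 animals each; bars are geometric means and open circles are the 3 arrays of 188 dpn with high ALB. TNNT2 and MYL4 are already low at 1 dpn while ACTC1 is near its fetal level until 28 dpn, MYH2 is high only from 28 dpn on, and the 2 stages at the ends do not overlap in any of the 12 panels.

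Adult contractile genes rose, most of them by less. All 7 measured fast fibre genes were higher (7 of 7, median 0.84), but only 1 held, as the median was 0.19 after quantile normalization. That gene was MYH2, the fast IIA myosin heavy chain, whose 12 arrays read 3502, 6881 and 18420.0 at 94 dpc and 58084, 74189 and 80848 at 188 dpn. The stages did not overlap, and the log2 difference was 3.21 ± 0.43 (adjusted p = 1.9e-06). Its mean at 1 dpn, 7653, was still at the fetal level, and at 28 dpn it was 69998. Fast heavy chain genes are alike in sequence, so a probe set named for one may read others. MYL1, the fast essential light chain, went from 34377–49627 to 57352–77620.4 (0.70 ± 0.12, adjusted p = 8.2e-05), and its difference after quantile normalization was 0.04. TNNI2 and TNNT3, the fast troponins I and T, both rose by 0.94 and did not hold either. TPM1, a tropomyosin, rose by 0.84 by its brightest probe set, while its 3 probe sets ranged from -1.67 to 0.84 and were called in both directions.

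Of 12 slow fibre genes 9 rose and 2 fell, and 6 and 2 of these held; the median was 0.88. MYL3, the slow essential light chain, showed the largest rise, from 3788–5936 to 11238–26629.5 (1.96 ± 0.24, adjusted p = 5.1e-07). The slow myosin heavy chain MYH7 rose from 21165–26365 to 36208–55139 (1.03 ± 0.14), and TNNT1, slow troponin T, from 15885–21457 to 35904–50894 (1.26 ± 0.15). PLN, phospholamban, which restrains the slow calcium pump, rose by 1.37. The brightest member, MYL2, rose by 0.77 and did not hold. The members that fell were CASQ2, the cardiac and slow calsequestrin that stores calcium, and TPM3, the slow tropomyosin. CASQ2 went from 1639–2729 to 14.5–122, without overlap and by at least 25.9-fold, and TPM3 from 3019–5172 to 705–1321 (-1.81 ± 0.21). The 3 probe sets of TPM3 ranged from -2.01 to -0.01, and 2 of them were called lower.

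Proteins that anchor and measure the sarcomere rose as well. Of 21 genes of Z-disc, M-band and giant proteins, 16 were higher and 1 lower (median 1.24), and 10 and 1 held. TMOD4, the skeletal tropomodulin that caps thin filaments, rose from 1762–4543 to 27485–41951, a difference of 3.39 ± 0.27 (adjusted p = 1.4e-09). PDLIM3, which binds alpha-actinin, rose from 3669–5698 to 28071–40328 (2.97 ± 0.29); most of this came after 28 dpn, when its mean was 10954. CAPN3, the muscle calpain, rose by 2.84 in its brightest probe set, while the other of its 2 had a difference of 0.42 that did not pass. MYOZ1, the calsarcin of fast fibres and the brightest of the list, rose by 1.52, and TTN, titin, by 1.27. The gene that fell was PDLIM7, from 147–202 to 4.15–121.

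All 6 measured genes that couple excitation to contraction were higher (median 1.33, 1.43 after quantile normalization), and 5 held. ATP2A1, the fast calcium pump of the sarcoplasmic reticulum, read 557, 1409 and 1809.8 at 94 dpc and 17359.7, 21556 and 24046 at 188 dpn. The lowest fetal value was that of animal 5. The stages lay far apart (4.07 ± 0.22, adjusted p = 8.6e-12), and most of the rise had taken place at 1 dpn, with a mean of 15147. RYR1, the calcium release channel, was by contrast still at 5805 at 1 dpn and rose from 3703–7521 to 20043–23922 over the whole span (1.79 ± 0.17). CACNA2D1, a calcium channel subunit, and HRC, the histidine rich calcium binding protein, rose by 1.52 and 1.14. SLN, sarcolipin, a small inhibitor of the pump and the brightest member, rose by 0.87 and did not hold.

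Within an array the ratio of related isoforms does not depend on how that array was scaled as a whole. For 15 pairs, chosen after the data were seen and so no independent evidence, the log2 ratio of the adult to the developmental or widely expressed isoform was compared between the stages. In all 15 pairs the ratio was higher at 188 dpn and the 12 arrays did not overlap, also with every signal under background raised to it. Ratios are given as changes from the pair's own mean at 94 dpc, since levels of different probe sets cannot be set against each other. In 3 pairs a stage mean lay under background, and their changes are lower bounds. The ratio of TNNT3 to TNNT2, with TNNT2 raised to background where it lay under it, was -0.20 to 0.29 at 94 dpc and 4.79 to 6.36 at 188 dpn, a rise of at least 5.83. The ratio of MYL1 to MYL4 rose by 5.34 ± 0.20 and that of MYL3 to MYL4 by 6.61 ± 0.22. For ATP2A1 over ATP2A2, the fast over the slow calcium pump, the change was 3.08 ± 0.25; by its brightest probe set ATP2A2 rose as well (0.99), but its 4 probe sets ranged from -1.62 to 1.15. The means at the stages between differed by pair: TNNT3 over TNNT2 had risen by at least 5.41 at 1 dpn, while MYH2 over the non-muscle heavy chain MYH9 had changed by 0.28 at 1 dpn and 3.71 at 28 dpn, of 4.71 ± 0.37 in all. TMOD4 over TMOD1, the tropomodulin of many tissues, rose by 2.33 ± 0.14 although TMOD1 itself rose (1.05). The smallest change was that of CKM over CKB, the muscle over the brain creatine kinase, at 1.64 ± 0.36, and it was 0.49 after quantile normalization. CKB itself was 189–558 before and 94.0–219.6 after, with overlap.

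**Figure D4:**
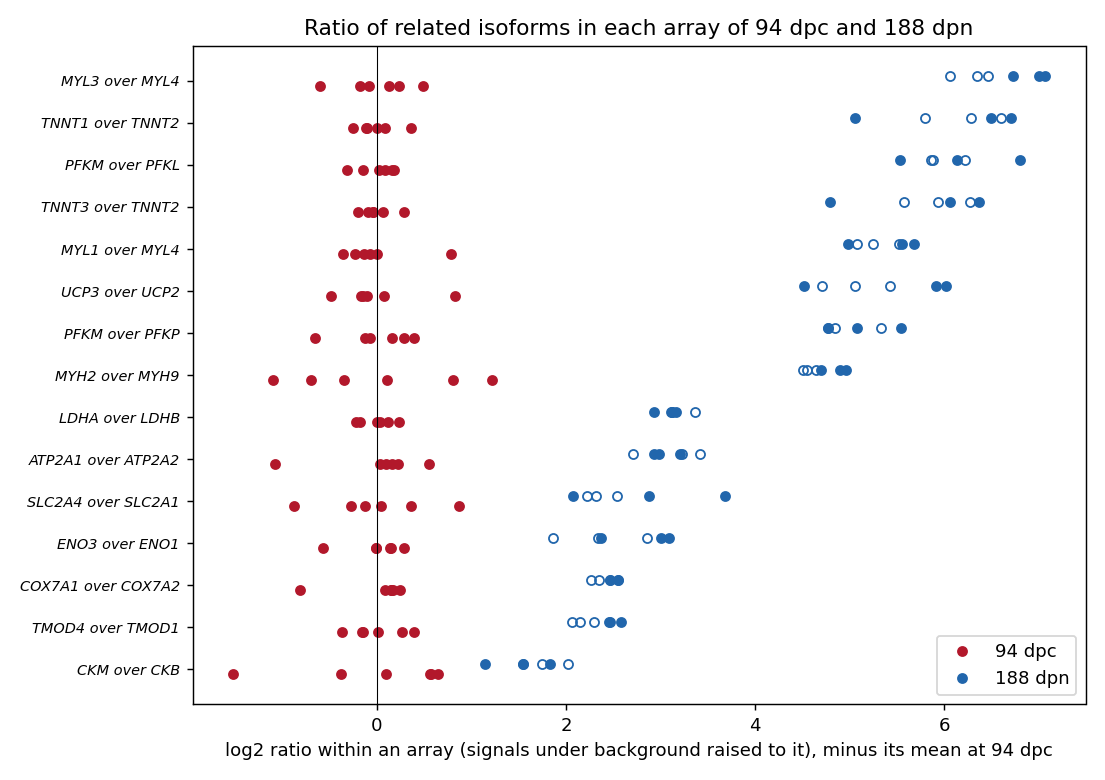
Log2 ratio of the isoforms of 15 pairs within each array, with signals under background raised to it, less the pair's mean at 94 dpc, for the 6 arrays of 94 dpc and the 6 of 188 dpn; open circles are the 3 arrays with high ALB. In every pair all arrays of 188 dpn lie to the right of all arrays of 94 dpc, from a mean of 1.64 for CKM over CKB to 6.61 for MYL3 over MYL4, and the values of TNNT3 and TNNT1 over TNNT2 and of UCP3 over UCP2 are lower bounds.

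Both measured genes of the neuromuscular junction list fell and held, with 2 of 15 listed genes on the array by name. CHRNA1, the acetylcholine receptor subunit that spreads over uninnervated fetal fibres, went from 383–1370.5 to 32.7–123 (-3.19 ± 0.42, adjusted p = 1.6e-06), and NCAM1, the neural cell adhesion molecule, from 409–626 to 65.3–190.3 (-2.16 ± 0.29). The stages did not overlap in either.

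Among 12 regulators of myogenesis 2 rose and 5 fell, all of which held, while the list's median was 0.06. The determination factor MYF5 read 306, 666 and 1183 at 94 dpc and 54.6, 66.9 and 127 at 188 dpn, where its mean was under background, a fall of at least 7.29-fold. MYOD1, the other determination factor, fell from 1284–2638 to 172–371 (-2.78 ± 0.22, adjusted p = 1.4e-09). MYF6, the member of that family known from mature fibres, went the other way, from 850.3–1499 to 2872–8038 (2.06 ± 0.31, adjusted p = 1.3e-05). Its mean of 539 at 1 dpn was below the fetal one, and its level at 28 dpn was 1371. FST, follistatin, which binds myostatin, fell by 2.49 and ID3, an inhibitor of the myogenic factors and the brightest of the list, by 1.80, while MEF2A, a partner of those factors, rose by 0.92. Myostatin itself (MSTN) read 74.7–388 and 138–386, with a difference of 0.06 ± 0.46 that did not pass.

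The phosphate shuttle of muscle had the highest median of the 41 lists, 2.06, with 5 of 6 genes higher and 1 lower; 4 of the rises held. CKMT2, the creatine kinase of muscle mitochondria, read 551, 1231 and 1385 before and 18642, 23197 and 29163 after. The stages were 21.7-fold apart (4.44 ± 0.22, adjusted p = 1.6e-12), and the mean at 1 dpn was already 30675. GAMT, the last enzyme of creatine synthesis, stayed at 492 at 1 dpn, then reached 4606 at 28 dpn and 7752–10213 at 188 dpn (3.98 ± 0.32). AMPD1, the muscle AMP deaminase, rose from 4339–7383 to 36271–40994 (2.63 ± 0.23), and the creatine transporter SLC6A8 by 1.49. CKM, the cytosolic enzyme and the brightest member, rose by 0.82 and did not hold (0.20 after quantile normalization).

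Glycolysis was split by isozyme. Of 22 measured genes 13 rose and 7 fell, with 11 and 5 held and a median of 1.24 (0.87 with the 2 genes under background at a stage at their bound). PFKM, the muscle phosphofructokinase that sets the pace of the pathway, read 2693, 3931 and 5107 at 94 dpc and 41875, 50372 and 57457 at 188 dpn (3.67 ± 0.24, adjusted p = 8.7e-11). PFKL, the liver form, fell from 929–1269 to 139.8–300.1 (-2.40 ± 0.29), and PFKP, the platelet form, from 317–555 to 110.0–182 (-1.39 ± 0.31, not held). Within the arrays, PFKM over PFKL thus rose by 6.07 ± 0.19. ENO3, the muscle enolase, rose by 1.51 while ENO1, the common one, fell by 1.08. LDHA, the lactate dehydrogenase subunit of glycolytic fibres, rose from 10504–14019 to 59047–74590.0, and LDHB, that of oxidative tissue, fell from 10729–13920.0 to 6178–9024. The ratio LDHA over LDHB had the smallest error of the 15, 3.14 ± 0.09, with changes of 0.56 up to 1 dpn and 2.07 up to 28 dpn. Other large rises were those of GPD1, the cytosolic glycerol phosphate dehydrogenase (3.98 ± 0.27), GPI, the isomerase ahead of phosphofructokinase (3.16 ± 0.19), TPI1, triose phosphate isomerase (2.39 ± 0.21), and PGK1, phosphoglycerate kinase (2.37 ± 0.18). FBP2, the fructose bisphosphatase of muscle that runs against phosphofructokinase, rose most, from 414–1054 to 10229–27270.4 (4.74 ± 0.31). At the entry to the pathway, HK1, the common hexokinase, fell by 2.08 and the glucose transporter SLC2A1 by 2.14. The insulin-regulated transporter SLC2A4 read 55.3–171 and 135–394 and did not pass (0.76 ± 0.52, adjusted p = 0.27). GAPDH, the brightest of the list, depended on the probe set: the brightest of 5 rose by 0.45, with -0.17 after quantile normalization, while all 5 ranged from 0.25 to 3.65.

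Glycogen genes rose as well, 7 of 12 against 1 that fell, with 6 and 1 held and a median of 1.26. PYGM, the muscle glycogen phosphorylase, rose from 4172–8086 to 39558–53725 (2.90 ± 0.16, adjusted p = 1.1e-11). PHKB, a regulatory subunit of the kinase that activates it, rose from 1017–1619.7 to 12928–21448 (3.55 ± 0.19). PGM1, which links glucose 1-phosphate to glycolysis, rose by 3.01 and GYG1, the glycogenin that primes new glycogen, by 2.82. The stages did not overlap in any of these 4 genes.

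Mitochondrial matrix enzymes rose in nearly the whole list: 23 of 25 genes of the citric acid cycle and pyruvate entry were higher and 1 lower (median 1.12), and 17 of the rises held. PDK4, the kinase that shuts pyruvate dehydrogenase, read 252, 348 and 509 before and 5916, 16652 and 36565 after. Its difference was 5.20 ± 0.44 (adjusted p = 3.5e-09), and the means at 1 and 28 dpn were 6075 and 6215. PDHA1, the catalytic subunit that this kinase inhibits, rose too (1.35 ± 0.26). CS, citrate synthase, often used as a measure of mitochondrial mass, rose from 4620.1–7198 to 13284–19990.0 (1.38 ± 0.15), but its means of 18086 at 1 dpn and 23636 at 28 dpn were above the final one. SUCLA2, a succinyl-CoA ligase subunit, rose by 2.42, SDHC, a succinate dehydrogenase subunit, by 1.99, PC, pyruvate carboxylase, by 1.96, and IDH2, isocitrate dehydrogenase and the brightest of the list, by 1.63.

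Respiratory chain genes moved less. Of 45, 31 rose and 3 fell as deposited, but only 9 and 2 held; the median was 0.58, and 0.08 after quantile normalization, when 10 were higher. COX7A1, the cytochrome oxidase subunit of striated muscle, rose from 3719.6–11153 to 19399.6–29193 (1.54 ± 0.21, adjusted p = 3.9e-06). COX7A2, its counterpart in other tissues, fell from 6538–10030.0 to 4041–5296 (-0.91 ± 0.15, adjusted p = 4.7e-05), after a mean of 23708 at 1 dpn. COX6A1, another subunit form of non-muscle tissue, fell by 1.49. ATP5J, UQCRB and NDUFA9, of ATP synthase, complex III and complex I, rose by 1.78, 1.29 and 1.17. NDUFV3 ended under background, at least 2.03-fold lower, and did not hold. ATP5A1, the brightest, rose by 0.82 and did not hold.

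In fatty acid uptake and oxidation 15 of 28 genes rose and 1 fell, with 7 and 1 held (median 0.50). The uncoupling proteins of the inner membrane moved in opposite directions. UCP3, the muscle form, read 15.3, 47.5 and 79.0 at 94 dpc, a mean under background, and 626, 1034 and 1767 at 188 dpn, a rise of at least 14.0-fold (adjusted p = 5.6e-10). UCP2, expressed in many tissues, went from 115–286 to 4.62–17.3, a fall of at least 2.76-fold. The short and medium chain acyl-CoA dehydrogenases ACADS and ACADM rose by 1.91 and 1.44. FABP3, the muscle fatty acid binding protein, peaked between the stages compared: its means were 5692, 50612, 25630.3 and 8791 in the order of age, and its difference of 0.63 ± 0.21 passed as deposited but did not hold.

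Genes of branched chain amino acid breakdown included 7 that rose and 1 that fell of 14, with 6 and 1 held (median 0.45). BCKDHB, a subunit of the branched chain ketoacid dehydrogenase, rose from 269.7–466 to 1777–3022 (2.89 ± 0.26), and the kinase of that complex, BCKDK, rose by 1.39. BCAT1, the cytosolic transaminase of growing tissue, fell from 278–402 to 22.9–106. MUT, the methylmalonyl-CoA mutase, rose by 1.27 with stages that overlapped.

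Antioxidant enzymes moved both ways, 16 up and 7 down of 28, of which 10 and 5 held (median 0.63). SOD2, the mitochondrial superoxide dismutase, read 895, 1126 and 1465 and 7742, 10171 and 10732 at the 2 stages (3.04 ± 0.16, adjusted p = 3.5e-12). PRDX3, the mitochondrial peroxiredoxin, rose by 1.83 and GPX3, the secreted glutathione peroxidase, by 2.92. GPX7, of the endoplasmic reticulum, fell by 3.08 and GSTM3, a glutathione transferase, by 2.83.

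Among 10 genes of iron and oxygen handling 4 rose and 1 fell, and 2 of the rises held (median 0.54, and 0.30 with the 1 gene under background at background). EGLN1, the oxygen sensor that marks HIF1A for breakdown, rose from 1320.0–2525 to 4668–5778 (1.39 ± 0.16). VEGFA, the endothelial growth factor, rose by 1.98 in its brightest probe set, but its 4 probe sets ranged from -1.10 to 1.98 and were called in both directions. CA3, the carbonic anhydrase of slow fibres, rose by 1.59 as deposited and did not hold. HIF1A fell by 0.88 in its brightest probe set, while the mean of its 4 probe sets was 0.21. FTH1, ferritin heavy chain and the brightest, did not pass (0.33 ± 0.15).

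Imprinted growth genes were among the largest falls. Of 14 measured 9 fell and 1 rose, 7 and 1 of them held, and the median was -2.01 (-1.46 with the 2 genes under background at a stage at their bound). PEG10, a paternally expressed gene derived from a retrotransposon, read 15445, 17311 and 18831 at 94 dpc and 82.8, 146 and 229.7 at 188 dpn. By this probe set the fall was 123-fold (adjusted p = 2.2e-09), in steps of 1696 at 1 dpn and 475 at 28 dpn; its 3 probe sets ranged from -6.94 to 0.90 in log2. MEG3, a maternally expressed long noncoding RNA, fell from 9761–11719 to 165–307 (-5.63 ± 0.52), with a mean of 604 at 1 dpn. PLAGL1, a zinc finger factor, fell by 4.48 and NDN, necdin, by 2.11. IGF2, the fetal growth factor, fell from 6859.8–16939 to 350.4–1439 (-3.76 ± 0.37, adjusted p = 3.4e-08); its 13 probe sets ranged from -4.17 to 0.26. Its means of 4545 and 3796 at 1 and 28 dpn lay between. GRB10, an adaptor that damps insulin and IGF receptors, was the member that rose, from 625–1383 to 5073–10102 (2.67 ± 0.29, adjusted p = 1.5e-07).

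The rest of the IGF axis gave no call that held by the brightest probe set of each gene. As deposited 5 of 9 genes fell and the others did not pass (median -1.06, and -0.71 with the 4 genes under background at a stage at their bound). After quantile normalization 1 was lower and 1 higher. IGF1 went from 268–549 to 96.4–159 (-1.39 ± 0.34), IGF1R, its receptor, from 110.5–187 to 9.22–114, and IGFBP2, a binding protein, from 355–837 to 21.3–311. The other of the 2 probe sets of IGF1R fell from a mean of 187 to 51.3, under background. That fall held, with a fitted difference of -1.87 ± 0.32 (adjusted p = 4.9e-05). IGFBP5 fell by 1.13 and IGFBP6, the brightest, by 0.73.

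Genes of dividing cells fell. Of 25 mitotic genes 23 were lower and the others did not pass, 16 held, and the median was -2.44 (-1.76 with the 17 genes under background at a stage at their bound). STMN1, stathmin, which takes microtubules apart and was the brightest member, read 9095, 9526 and 11519.8 before and 1354, 1874 and 2367 after, with no overlap (-2.44 ± 0.18, adjusted p = 6.1e-10). CDC20, the activator of the anaphase promoting complex, fell from 298–537 to 7.19–54.2, under background and so by at least 5.28-fold. CCNB2, cyclin B2, CENPF, a centromere protein, and TOP2A, the topoisomerase of dividing cells, fell by at least 3.39-fold, 4.13-fold and 7.43-fold. SKA1, of the kinetochore, had a fetal signal of 71.0–152, near background, which allows a fall of only 1.32-fold or more. MYBL2, the B-Myb factor that drives these genes, went from 496–674 to 4.89–36.3, at least 7.86-fold lower.

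DNA replication genes included 14 that fell and 1 that rose of 19, with 8 and 1 held and a median of -1.41 (-0.94 with the 8 genes under background at a stage at their bound). The rise was that of MCM4, a helicase subunit, from 16.7–42.3 to 35.0–168, with both means under background, and its other probe set had a difference of -2.15 that did not pass. PCNA, the sliding clamp, fell from 1313–2203 to 355–485 (-2.08 ± 0.19, adjusted p = 9.4e-09), with means of 580.4 and 895 at 1 and 28 dpn. MCM2, of the replicative helicase, fell from 469–815 to 24.5–120.1, at least 7.32-fold, though its 3 probe sets gave a mean log2 difference of -1.71. ORC1, RRM2 and POLE2, of origin recognition, nucleotide reduction and the polymerase, ended under background and fell by at least 2.62-fold, 3.94-fold and 1.73-fold. RPA3, a single strand binding protein and the brightest, did not pass (-0.30 ± 0.18).

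Chromatin genes of dividing cells fell in 10 of 17 members, of which 8 held (median -0.72, and -0.19 after median centring). HMGB2, a chromatin protein of proliferating cells, fell from 2254–5817 to 221–397 (-3.72 ± 0.29), DNMT1, the maintenance DNA methyltransferase, from 849–1762 to 81.5–171 (-3.20 ± 0.24), and LMNB1, lamin B1, which fell by 2.91. EZH2, the histone methyltransferase of Polycomb, fell from 225–588 to 6.35–90.6, at least 4.25-fold. HMGN2, a nucleosome binding protein and the brightest, fell by 1.66.

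Most measured connective tissue genes fell. Of 19 collagens and collagen enzymes 15 were lower and the others did not pass (median -1.82), and 14 held. COL1A2, a chain of type I collagen, read 3320.1, 4610.3 and 5764 at 94 dpc and 327, 501 and 623 at 188 dpn (-3.19 ± 0.35, adjusted p = 1.3e-07). COL5A1, of the collagen that starts fibrils, fell by 2.90, COL4A2, of basement membranes, by 2.02, and COL6A3, of the fibre sheath and the brightest, by 1.16. The enzymes and the chaperone of collagen fell too: BMP1, which trims procollagen, fell by 2.57, LOX, which cross-links it, by 2.39, and SERPINH1, its chaperone, by 2.36. P3H4, part of a complex that modifies collagen inside the cell, read 438–1033 before and 7.33–26.5 after, a fall of at least 9.89-fold.

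Matricellular proteins and proteoglycans were lower in 28 of 30, with 24 held. Their median was -1.95 (-2.23 after quantile normalization and -1.41 after median centring). POSTN, periostin, a matrix protein of growing and healing tissue, read 8556, 13094 and 15237 before and 75.1, 168 and 504 after, 78.1-fold apart (adjusted p = 1.1e-09). Of the finished animals, animal 1 was the highest at 504, and the others were 75.1 to 183. ASPN, asporin, fell from 2802–9539 to 157–608 (-4.75 ± 0.35), VCAN, versican, from 1312–3357 to 66.3–141 (-4.49 ± 0.31), and PTN, pleiotrophin, by at least 17.5-fold, though the mean of its 2 probe sets was -2.26. SPARC, the brightest, fell by 0.55 with stages that overlapped, after means of 55321 at 1 dpn and 43220.1 at 28 dpn that were above the fetal 35769. The sum of 6 fibroblast markers was 40369.9 to 46945 in the fetuses and 13045 to 20482 in the finished animals, and 5 of the 6 fell.

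Endothelial genes were mostly lower, 14 against 1 that was higher, of 17 (median -1.40), and 7 held. The higher gene was VWF, von Willebrand factor, whose brightest probe set went from a mean of 416 to 697 (0.74 ± 0.28) and did not hold. CDH5, the cadherin of vessel walls, fell from 2393–4270.4 to 616–894 (-2.31 ± 0.18, adjusted p = 8.1e-10), and PECAM1 from 2957–5652 to 866–1373 (-2.10 ± 0.18). The receptors TIE1 and KDR ended under background, at least 3.56-fold and 1.64-fold lower, with stages that overlapped.

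Of 41 genes of pre-mRNA splicing 28 fell and the others did not pass, and 20 held. The median was -0.67 as deposited, -0.87 after quantile normalization and -0.13 after median centring. The size of this fall thus depended on the scaling, and the median of all probe sets after centring was 0.25. PTBP1, the splicing repressor known from developing muscle and brain, read 2509.7, 2718 and 3034 at 94 dpc and 652, 725 and 791 at 188 dpn, with no overlap (-1.89 ± 0.17, adjusted p = 8.2e-09). SRSF4, SRSF5 and SRSF3, serine and arginine rich splicing factors, fell by 1.65, 1.65 and 1.18, HNRNPA1 by 1.48, and SNRPD1, a core protein of the spliceosome, by 1.56. HNRNPK, the brightest, did not pass in its brightest probe set (-0.24 ± 0.15), while its other probe set fell by 1.01 and held.

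Proteasome genes rose, 27 of 32 against 1 that fell, with 17 held and a median of 1.01. PSMD11, of the lid, read 3566, 3792 and 4032 at 94 dpc and 13696, 16507 and 17213 at 188 dpn (2.08 ± 0.17, adjusted p = 1.6e-09). Its means at 1 and 28 dpn, 7139 and 6968, lay between. PSMA3 and PSMA5, of the core particle, rose by 1.87 and 1.51 and the activator PSME3 by 1.60. PSMA7, the brightest, rose by 0.70 and did not hold.

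Of 22 genes of atrophy and autophagy 9 rose and 3 fell, and 8 and 2 held (median 0.14). FBXO32, the ubiquitin ligase atrogin-1, stood at 372–1272 at 94 dpc, at means of 821 and 611 at 1 and 28 dpn, and at 3733–9739.6 at 188 dpn (3.41 ± 0.44, adjusted p = 1.2e-06). TP53INP2, an autophagy factor of muscle, rose by the same amount but early, with a mean of 3035 at 1 dpn. SQSTM1, the cargo receptor p62, rose by 2.14 and MAP1LC3A, of the autophagosome, by 1.83. GABARAP, the brightest, did not pass (0.20 ± 0.14, and -0.39 after quantile normalization).

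Chaperone genes included 11 that rose and 1 that fell of 21, with 7 and 1 held (median 0.68). HSPB8 and its partner BAG3, which clear damaged sarcomere proteins, rose by 2.55 ± 0.22 and 2.13 ± 0.14. HSPB3 and HSPB7, small heat shock proteins of muscle, rose by 2.54 and 2.28, and HSPB7 had its highest mean, 7787, at 1 dpn. HSPA8, the constitutive HSP70 and the brightest, rose by 1.16 in its brightest probe set, while its 4 probe sets ranged from -1.73 to 1.16 and were called in both directions.

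Cytosolic ribosomal protein genes were near the centre, 7 higher and 6 lower of 58, with a median of 0.05 that turned to -0.39 after quantile normalization, when 33 were lower. RPL3 stood out among the 3 falls that held, from 17180.4–26100.5 to 3485–6029.5 (-2.17 ± 0.14, adjusted p = 4.7e-11), with means of 26327 at 1 dpn and 9196 at 28 dpn. RPLP2 fell by 0.73 with overlap, RPL37 fell by 0.77 without holding, and RPL26, which ended under background, was at least 1.13-fold lower and did not hold either. RPS20, the brightest, did not pass (0.27 ± 0.13). Among 18 tRNA synthetases and serine synthesis genes 1 rose and 5 fell, 1 and 1 of which held (median -0.18): SARS, seryl-tRNA synthetase, rose by 1.57, and MTHFD2, a mitochondrial folate enzyme of growing cells, fell by 1.62. PHGDH and HARS fell by 2.08 and 0.99 and did not hold, and KARS, the brightest, did not pass (-0.18 ± 0.15).

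Of 22 genes of fat cells and fat synthesis 4 rose and 5 fell, with 4 and 2 held (median 0.26). ME1, the malic enzyme that supplies NADPH, rose from 81.7–219 to 1836–3268 (3.95 ± 0.39, adjusted p = 2.8e-08), and its means of 285 and 366 at 1 and 28 dpn were near the fetal one. CEBPB, an early factor of fat cell differentiation, rose by 3.14 and PNPLA2, the adipose triglyceride lipase, by 1.82, while FADS2, a desaturase, ended under background and was at least 1.37-fold lower. FABP4, the fat cell binding protein and the brightest, did not pass (-0.64 ± 0.30), and of 5 measured adipocyte markers none passed in limma, with 1 at an unadjusted p under 0.05 and 0 called with trend and robust settings of eBayes. Their sum was 3925 to 6430.1 in the fetuses and 2603 to 4299.7 in the finished animals.

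Of 7 circadian clock genes 2 rose and both held: CRY2, a repressor of the clock, from 367–639.7 to 1491–2189.8 (1.94 ± 0.15, adjusted p = 5.6e-10), and RORA, an activator of it, from 59.2–144 to 170.2–294 (1.34 ± 0.42). PER1 was the brightest and did not pass (0.58 ± 0.31). The hour of sampling is not given in the labels.

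Several of the 12 largest rises belong to no list. The order of the rises and falls is that of the fitted differences, without regard to background: a stage mean lay under it in 6 of the 12 rises and 7 of the 12 falls, so that for these the place in the order is not settled. CYP3A29, a porcine cytochrome P450 of the family that oxidises drugs and steroids, read 2.25, 4.12 and 114 at 94 dpc, with a mean under background, and 462, 1612 and 4030.2 at 188 dpn, at least 20.8-fold higher (adjusted p = 1.0e-06). The 3 animals of 188 dpn with low ALB read 1217, 1244 and 2091, each above the highest fetus, and the change held without the others. C4BPA, the alpha chain of the complement inhibitor C4b-binding protein, rose from 15.3–2671 to 2857–5995 (5.49 ± 0.81). The highest fetal value was that of animal 5, and the others read 15.3 to 130.4. CST6, the cysteine protease inhibitor cystatin E/M, rose from 9.38–385 to 1716–2627, at least 22.4-fold, with the highest fetal value in animal 4 and 9.38 to 22.4 in the remaining fetuses. TRNP1, a nuclear protein, rose by at least 8.03-fold and had a mean of 365 at 1 dpn. DEFB1, a beta defensin of epithelia, rose by at least 7.11-fold, with a mean difference of 2.67 over its 2 probe sets. MSS51, a mitochondrial protein of muscle, went from 423–548 to 7401–20756 (4.70 ± 0.26, adjusted p = 1.1e-11) after a low of 196 at 1 dpn and 2003 at 28 dpn. BPGM, which makes 2,3-bisphosphoglycerate from a glycolytic intermediate, rose from 137–243 to 2943–6656 (4.60 ± 0.27). The loci LOC100153598 and LOC100302368 have no gene name in the annotation used: the former rose from 441–1199.8 to 17427–44505, with a second probe set that was called lower and ended under background, and the latter from 3.06–6.52 to 10.4–2955, at least 1.73-fold, with 3 of the 6 finished animals under background.

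Of the 12 largest falls, 4 are not yet described. The probe set of LOC396711, without a gene name in the annotation used, had the largest fitted fall, from 24644, 28878 and 32247 to 94.7, 147 and 465 as lowest, median and highest (-7.41 ± 0.56, adjusted p = 5.6e-10). Its means at 1 and 28 dpn were 3758 and 869. IGSF1, an immunoglobulin superfamily membrane protein, fell from 3054–5479 to 54.9–95.1, at least 55.4-fold, and EGFL6, a secreted protein with EGF repeats, from 1586–2455 to 13.8–98.3, at least 22.0-fold. LOC100519808, also unnamed, went from 1369–4119 to 61.6–129.7 (-4.98 ± 0.25).

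Genes of other cell types were measured beside these. Of 35 plasma protein and liver enzyme genes 4 rose and 2 fell, and the median of 0.70 became -2.19 without the 3 arrays with high ALB, when 1 rose and 13 fell. Of 5 erythroid markers 4 fell and 1 held, with a summed signal of 1243 to 1828 in the fetuses and 422 to 1034 in the finished animals. For macrophage markers, 1 of 6 fell and did not hold. Of 21 antigen presentation genes none passed in limma by its brightest probe set, with 2 at an unadjusted p under 0.05 and 1 called with trend and robust settings. Other probe sets did pass: of 9 for B2M, 2 were called higher and 3 lower, over a range of -1.54 to 1.43. SLA-DMA and SLA-8 each had 1 probe set called lower. Of 17 interferon-induced genes 2 fell, 1 of them in all 4 fits. Among T and B cell markers 6 of 7 were under background at each stage, and none was called by limma, 0 at an unadjusted p under 0.05 and 0 with trend and robust settings. Of 6 smooth muscle markers 1 rose and 2 fell, and the rise was that of DES, desmin, which is also among the skeletal fibre markers. Of 3 nerve and Schwann markers 2 fell by their brightest probe sets. MBP, myelin basic protein, was among these, but its other 3 probe sets were called higher. Of 3 cardiac markers none was called by limma, 0 at an unadjusted p under 0.05 and 0 with those settings. The part of these cell types in the differences of the lists above was not tested.

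**Figure D5:**
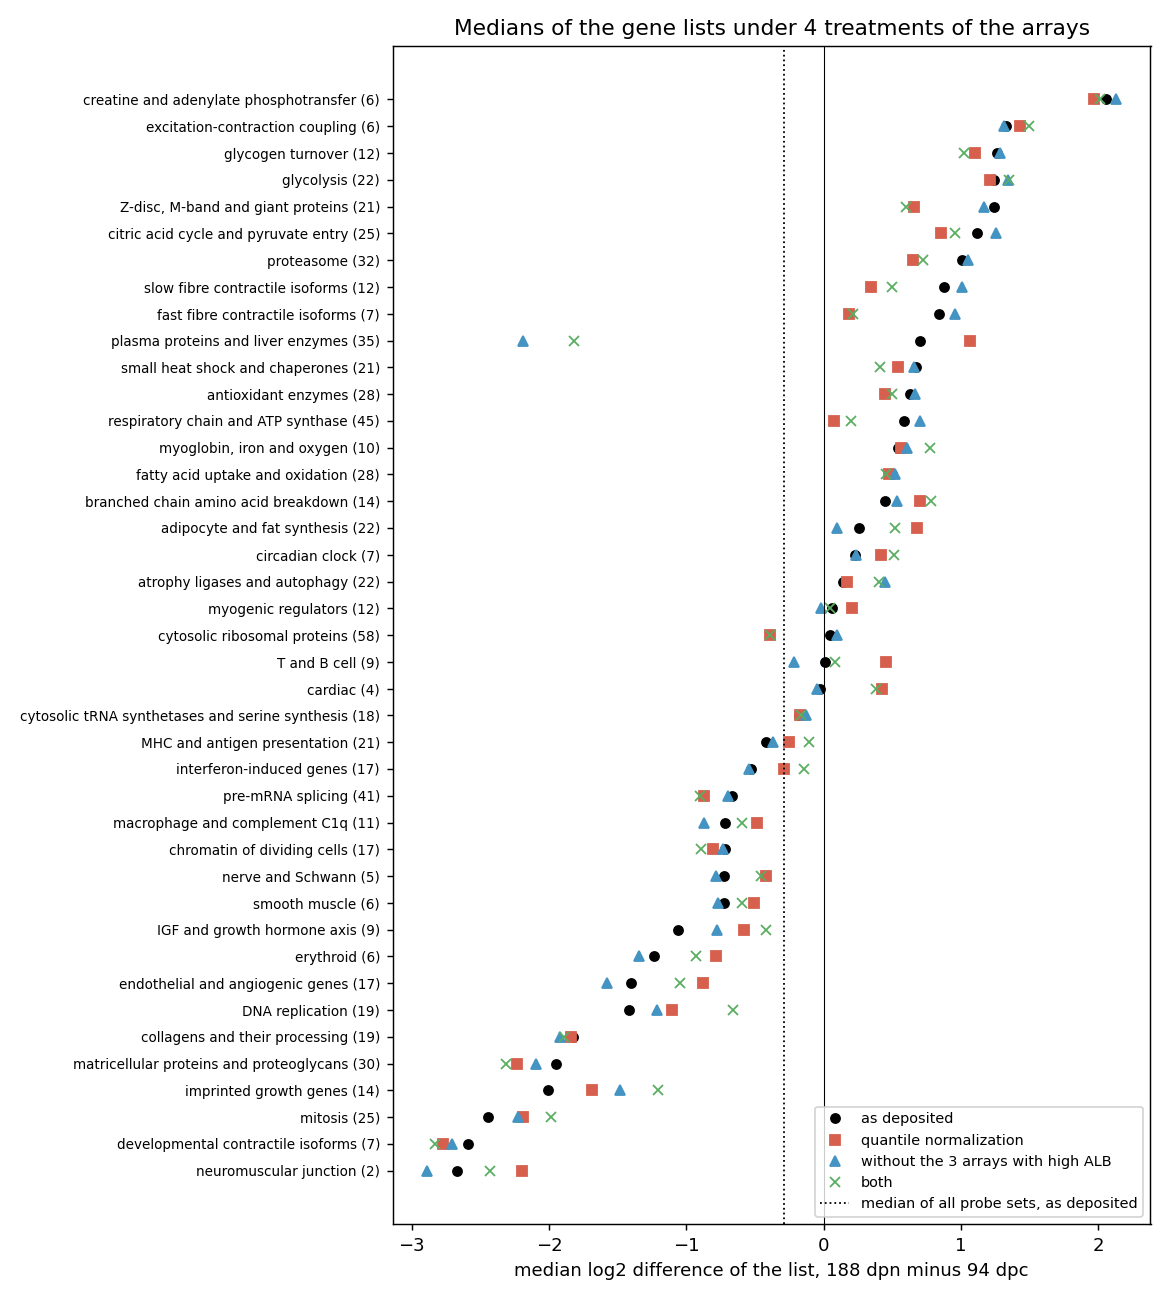
Median log2 difference of 188 dpn minus 94 dpc for each of the 41 gene lists (number of measured genes in brackets) as deposited, after quantile normalization, without the 3 arrays of 188 dpn with high ALB and with both; the dotted line is the median of all probe sets as deposited, -0.29. The creatine list lies near 2 and the neuromuscular, developmental contractile and mitotic lists near or below -2 under all 4, while the plasma protein list turns from 0.70 to -2.19 without the 3 arrays and the ribosomal list from 0.05 to -0.39 after quantile normalization.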

How the data were processed

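Signal intensity values for 24118 probe sets, 1 array per animal, were deposited by the authors. They came from GCOS 1.1.1, per the submitters' processing notes. Each array had been scaled, with a mean of 498 to 499 once 2% of values were cut at each end. The probe summary settings are not given in the sources used here. cRNA was made from 0.5 micrograms of total RNA, per the labels. The 183 control probe sets were left out and 23935 tested as log2 values, with no added constant and no filter. Symbols came from the platform annotation (10069 probe sets with 1, 198 with several, 13668 with none), and 9961 were found in RefSeq by gene number. A gene was read by its brightest probe set, and 60 of 2261 genes with several had calls in both directions. The brightest member of a list is the one with the highest signal, which is no comparison of RNA amounts between genes.

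limma 3.58.1 (R 4.3.3, with data.table, version 1.17.8) fitted 4 stage means on all 24 arrays, with 20 residual degrees of freedom, lmFit and eBayes, two-sided tests, p-values adjusted by Benjamini-Hochberg over the 23935 probe sets and a threshold of 0.05. Log2 differences carry the standard error of the fit. Background was the 95th percentile of 17 Tag control probe sets, 74.7, and 39.2% of probe sets averaged below it. A fold against a stage mean under it is a lower limit, with values under background raised to it. The check of isoform ratios and list medians with raised values was added after seeing the data. The method was tested on simulated data. Genes named are the 12 largest rises and falls that held without overlap, each list's brightest member and up to 4 called members, and isoform pairs; others in the lists were chosen after their values were seen. The members, the 41 lists (742 of 1070 genes measured) and the rules were chosen with earlier results of these data known. Alternatives were quantile normalization, median centring, fewer arrays, constants of 16 and 64, a filter on the dimmest 30%, trend and robust settings of eBayes and averaging the probe sets of a gene. No sequences were printed, as none came with the files used. Figures were drawn with matplotlib 3.10.9 in Python 3.11.15, from tables read with pandas 2.3.3 and numpy 2.4.6.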

Additional observations from a re-analysis of the deposited data

Results flagged for a closer look

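For each named gene the 6 animals of a stage were searched for one that stood far from the rest. Its gap to the nearest of the others, over the range of all 6, both in log2 signal, had to exceed Dixon's 95% critical value. Of 396 sets of 6 values 57 had such an animal. Chance gives about 1 in 20, and the genes of one array are not independent of each other. The values printed below are signal intensities, not log2 values. Animal 5 of 94 dpc was low, with 25506 for ACTC1, 557 for ATP2A1, 15090.5 for ATP5A1, 26077 for CKM, 3719.6 for COX7A1, 4620.1 for CS, 12622 for ENO3, 4244 for FABP3, 25496 for FTH1, 883 for GPD1, 625 for GRB10, 12599 for MYOZ1, 295 for PSME3, 30906 for RPS20, 3703 for RYR1, 21642 for SLN, 153 for TIE1, 1762 for TMOD4, 21972 for TNNI2, 21177 for TNNT3, 5523 for TPI1, 28331 for TPM1 and 5269 for UQCRB and was high, with 4058 for FST, 549 for IGF1 and 5172 for TPM3. Animal 2 of 188 dpn was low, with 51112 for CKM, 49284 for ENO3, 42251 for GAPDH, 373 for HIF1A, 6178 for LDHB, 36208 for MYH7, 57352 for MYL1, 47340.4 for MYL2, 39558 for PYGM, 48398 for TNNT3 and 42770.2 for TTN. Animal 4 of 94 dpc was low, with 1033 for ACADM, 2802 for ASPN, 1369 for LOC100519808, 663 for MEF2A, 74.7 for MSTN and 8556 for POSTN and was high, with 385 for CST6. Animal 5 of 188 dpn was low, with 1567 for HSPB7, 21.3 for IGFBP2 and 531 for RPL37 and was high, with 3864 for HNRNPA1. Animal 1 of 94 dpc was low, with 10729 for LDHB, 223 for PHGDH and 15.3 for UCP3. Animal 6 of 94 dpc was low, with 55.3 for SLC2A4 and 76.1 for TP53INP2. Animal 3 of 188 dpn was low, with 9.22 for IGF1R. Animal 4 of 188 dpn was high, with 36.3 for MYBL2. Animal 6 of 188 dpn was low, with 26.0 for NDUFV3. Animal 2 of 94 dpc was high, with 305 for MUT. Animal 5 of 94 dpc is also the fetus with the highest interferon, macrophage and antigen presentation medians given above. Leaving it out gave 9027 changed probe sets, 2866 of them higher, against 9548 and 2990 with it. Leaving out animal 2 of 188 dpn gave 9046 and 2884.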

How the results depend on the processing

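No paired analysis was possible because the labels give the animals of the stages no shared numbers or mothers. The count of changed probe sets, 9548, was 6994 to 10256 over the alternatives and 8983 to 9284 with each animal left out in turn. The higher count of 2990 was 5664 with each array centred on its median. The lower count of 6558 was then 3647, and 3628 with quantile normalization and without the 3 arrays with high ALB. Of 198 named genes 188 passed, and 152 of these passed in the same direction in every alternative. Most were named because they passed or held, so these counts follow from the choice and say nothing about other genes. Over all probe sets 39.9% passed and 22.4% held in the 4 fits. Signs turned as follows, in log2 differences. After quantile normalization, FTH1 was -0.12, GABARAP -0.39, GAPDH -0.17, RPS20 -0.32, the list median of cytosolic ribosomal proteins -0.39 and the list median of cardiac 0.42. With quantile normalization and without the 3 arrays with high ALB, FTH1 was -0.17, GABARAP -0.35, GAPDH -0.15, RPS20 -0.26, the list median of cytosolic ribosomal proteins -0.39, the list median of plasma proteins and liver enzymes -1.82 and the list median of cardiac 0.38. With each array centred on its median, HNRNPK was 0.30, KARS 0.35, RPA3 0.24, the list median of MHC and antigen presentation 0.11, the list median of interferon-induced genes 0.00833, the list median of cytosolic tRNA synthetases and serine synthesis 0.36 and the list median of cardiac 0.51. Without the 3 arrays of 188 dpn with high ALB, the list median of myogenic regulators was -0.016, the list median of plasma proteins and liver enzymes -2.19 and the list median of T and B cell -0.21. With the probe sets of a gene averaged, ATP2A2 was -0.16, HIF1A 0.21, HSPA8 -0.78, MSTN -0.11, PER1 -0.13, TPM1 -0.44 and the list median of myogenic regulators -0.0222. With 16 added before the log2, the list median of T and B cell was -0.0232. With 64 added, the list median of T and B cell was -0.0579. Without the dimmest 30% of probe sets, the list median of myogenic regulators was -0.87. With each animal left out in turn, the values ranged from -0.26 to 0.22 for MSTN, -0.0406 to 0.15 for the list median of myogenic regulators, -0.035 to 0.0842 for the list median of cytosolic ribosomal proteins, -0.13 to 1.38 for the list median of plasma proteins and liver enzymes, -0.15 to 0.41 for the list median of T and B cell and -0.28 to 0.16 for the list median of cardiac. Median centring also changed the size of list medians that kept their sign, such as pre-mRNA splicing at -0.13 and chromatin of dividing cells at -0.19. The causes were not tested. Where a stage mean lay under the background of 74.7, the arrays limit the size of a fall or rise to a lower bound. Animals number 6 per stage, which limits the precision of every difference.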
